A study of Mus musculus with 14 samples.

Results

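The 33 genes described here code for splicing regulators: 11 SR proteins, the 4 CLK kinases that phosphorylate them, and 18 other genes of the splicing machinery and its nuclear speckles. They were listed by name, with no measured value in the rule but with earlier results of these data known, and all 33 were found by their Entrez gene number in a count table of 24100 mouse genes. RNA was sequenced from the cerebellum at postnatal day 21, from littermates that were wild type (WT) or knockout (KO) for Astn2. Astn2 encodes astrotactin 2, a neuronal membrane protein, and every mouse in all groups carried the Tg(Pcp2-L10a-EGFP) transgene, in which the Pcp2 promoter drives a GFP-tagged ribosomal protein in Purkinje cells. In TRAP (translating ribosome affinity purification) the tagged ribosomes are pulled down with antibodies against GFP and their RNA is sequenced, so TRAP libraries are labelled as Purkinje cells. Input libraries are labelled as whole cerebellum and came from a part of the supernatant that was set aside after a low-speed spin of the homogenate. The groups were input WT (4 libraries, 1 female and 3 male), input KO (3 libraries, 2 female and 1 male), TRAP WT (3 libraries, 1 female and 2 male) and TRAP KO (4 libraries, 2 female and 2 male). The labels do not say whether a library is 1 animal or a pool, nor which TRAP and input libraries share an animal, so p-values measure the spread between these libraries.

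SR proteins carry RNA recognition motifs and a tail rich in arginine and serine (the RS domain). They bind exonic enhancers and recruit the U1 and U2 particles to splice sites, and they move between nuclear speckles and active genes as CLK and SRPK kinases phosphorylate the RS domain. Many of these genes control their own output through poison exons or retained introns: the affected transcripts stay in the nucleus or are destroyed by nonsense-mediated decay and are not translated. In the GENCODE M21 annotation 28 of the 33 genes (84.8%) had at least 1 transcript annotated as retained intron, against 55.7% of 14862 protein-coding genes tested, and 28 (84.8%) had a transcript annotated for nonsense-mediated decay, against 26.9%. The list was described as holding many genes with retained introns in brain, so the first share is in part built into the choice. The 33 genes also had a median of 10 annotated transcripts, against 5 for those protein-coding genes. The deposited values are 1 count per gene, so they do not separate intron-retaining from spliced RNA.

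Library totals ran from 18.8e6 to 54.2e6 counts. Single counts of these 33 genes ran from 183 (Clk1) to 51614 (Ddx5), and all 33 passed the filter on low counts in every comparison. Astn2 was high in every library labelled WT and near 0 in every library labelled KO, at 88.7 to 104 CPM in input WT and 0.729 to 0.968 in input KO, and at 117 to 146 in TRAP WT and 1.06 to 2.11 in TRAP KO. CPM here means counts per 1e6 counts of the library, scaled by TMM factors over all 14 libraries. TRAP libraries were higher than input in 12 of 12 Purkinje cell markers and lower in 10 of 10 granule cell and 10 of 10 oligodendrocyte markers in WT. Also lower were 8 of 8 endothelium, 7 of 8 microglia, 9 of 10 astroglia and 6 of 8 interneuron markers. Higher were 1 astroglia and 2 interneuron markers, and of 6 choroid plexus markers 1 was higher and 0 were lower. The mean log2(CPM + 1) of the granule cell list was 8.98 to 9.07 over input and 6.15 to 7.17 over TRAP libraries, and that of the oligodendrocyte list 7.51 to 8.06 and 5.57 to 6.55. Granule cell and oligodendrocyte RNA was thus lower but still present in TRAP. The part of other cells' RNA in the results below was not tested. In a bulk fraction, fewer cells of a type and less RNA per cell cannot be told apart.

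TRAP WT replicate 3 stood apart from the other TRAP libraries, and 4 of the 33 genes were far lower in it. Rbm25 codes for an RNA-binding regulator of splice site choice that associates with U1, and it stood at 75.7, 151 and 15.3 CPM in TRAP WT replicates 1 to 3. Luc7l3, a relative of the yeast U1 component Luc7, stood at 104, 182 and 24.2 CPM. Acin1, whose product acinus joins complexes at exon junctions, stood at 54.9, 72.1 and 16.1 CPM, and Srsf11, an RS-rich SR-like protein, at 79.4, 114 and 31.6 CPM. In TRAP KO, by contrast, Rbm25 stood at 136, 71.5, 84.4 and 70.0 CPM and Luc7l3 at 143, 98.2, 108 and 93.3 CPM, so no KO library came near the low value. The log2 difference of replicate 3 from the mean of the other 2 TRAP WT libraries was -2.73 for Rbm25, -2.46 for Luc7l3, -1.90 for Acin1 and -1.56 for Srsf11. Only these 4 of the 33 genes (12.1%) were lower by more than 1 log2 unit, where 5.78% of 13354 genes tested in TRAP were. Other TRAP libraries were high in these genes. Against the mean of the other 6 TRAP libraries, TRAP WT replicate 2 stood at 1.23, 1.09, 0.59 and 0.67 in that order of genes. TRAP KO replicate 1 stood at 1.05, 0.70, 0.63 and 0.48, and TRAP WT replicate 3 at -2.54, -2.24, -1.86 and -1.44. In replicate 3, 34.4% of all genes and 11 of the 33 lay more than 0.5 log2 units from the mean of the other 6 TRAP libraries. In each of the other TRAP libraries 2.17% to 12.5% of all genes and 0 to 5 of the 33 did. TRAP WT replicate 3 was also the lowest TRAP library in the mean log2(CPM + 1) of markers of granule cells (6.15), oligodendrocytes (5.57, next 5.66), astroglia (5.13, next 5.32) and interneurons (3.88, next 4.12). It was not the lowest in microglia markers (1.23, TRAP KO replicate 4 at 1.12) or endothelium markers (1.41, TRAP KO replicate 4 at 1.09). In choroid plexus markers it stood at 3.63, where TRAP libraries ran from 2.29 to 3.99. It was lowest too in nuclear noncoding RNAs (3.39, next 3.61) and in neuronal splicing regulators (4.80, next 5.30), and the highest, by a narrow margin, in Purkinje markers (12.23, next 12.22). The part of these differences in the low values was not tested.

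Coding sequence was read for these genes because the 4 low ones share a feature: long unbroken runs of purines (A and G). Such runs can code for stretches of lysine, arginine and glutamate. This feature was chosen after the values were seen. The longest run in each of the 4 genes, and in Son and Rbm5, which have such runs and were not as low in that library, is shown from the longest coding transcript of GENCODE M21, on the transcript's strand, with the purine run in capitals and 12 bases on each side in lower case.
Rbm25: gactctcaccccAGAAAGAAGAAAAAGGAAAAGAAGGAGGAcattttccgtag
Luc7l3: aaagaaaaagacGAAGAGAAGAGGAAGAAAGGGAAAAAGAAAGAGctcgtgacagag
Acin1: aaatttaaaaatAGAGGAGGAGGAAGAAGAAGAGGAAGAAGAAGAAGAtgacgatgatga
Srsf11: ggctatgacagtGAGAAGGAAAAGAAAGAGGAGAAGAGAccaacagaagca
Son: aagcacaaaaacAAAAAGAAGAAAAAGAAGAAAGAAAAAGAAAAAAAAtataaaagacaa
Rbm5: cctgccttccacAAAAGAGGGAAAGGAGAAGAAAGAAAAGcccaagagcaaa
All 6 stretches are coding exon sequence of build GRCm38 (mm10). The Rbm25 stretch joins exons 7 and 8 of 19 and spans the intron between them (chr12:83659567-83660318, plus strand). The Luc7l3 stretch lies in exon 8 of 12 (chr11:94296999-94297055, minus strand), the Acin1 stretch in exon 6 of 19 (chr14:54665483-54665542, minus strand) and the Srsf11 stretch in exon 13 of 13 (chr3:158012120-158012170, minus strand). The Son stretch lies in exon 3 of 12 (chr16:91654703-91654762, plus strand) and the Rbm5 stretch in exon 18 of 25 (chr9:107746031-107746082, minus strand).

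Purine runs of at least 20 bases summed to 145 bases in the Luc7l3 transcript, 120 in Rbm25, 85 in Acin1 and 68 in Srsf11. Son, with 77 bases in runs, differed by only -0.25 in replicate 3, and Rbm5, with 50, by 0.68. None of the 22 genes of the set without such a run was lower by more than 1 log2 unit in that library. That was bound to hold, since the 4 genes of the set that lay that low led to the choice of this feature. Over all 13354 genes with a coding transcript tested in TRAP, 4.77% of those without a run lay that low, 7.48% of those with at least 1 and under 50 bases in runs, 14.2% with 50 to under 100 and 16.3% with 100 or more. As a description of 1 library, the Spearman correlation of run bases with the difference was -0.33 over the 33 genes and -0.077 over all genes, and genes are not independent. The value over the 33 includes the 4 genes that led to the choice of this feature. Transcript length gave -0.19 over the 33 genes and 0.25 over all genes, the latter larger in size than that of run bases. The results below that rest on this library are given with and without it.

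**Figure D1:**
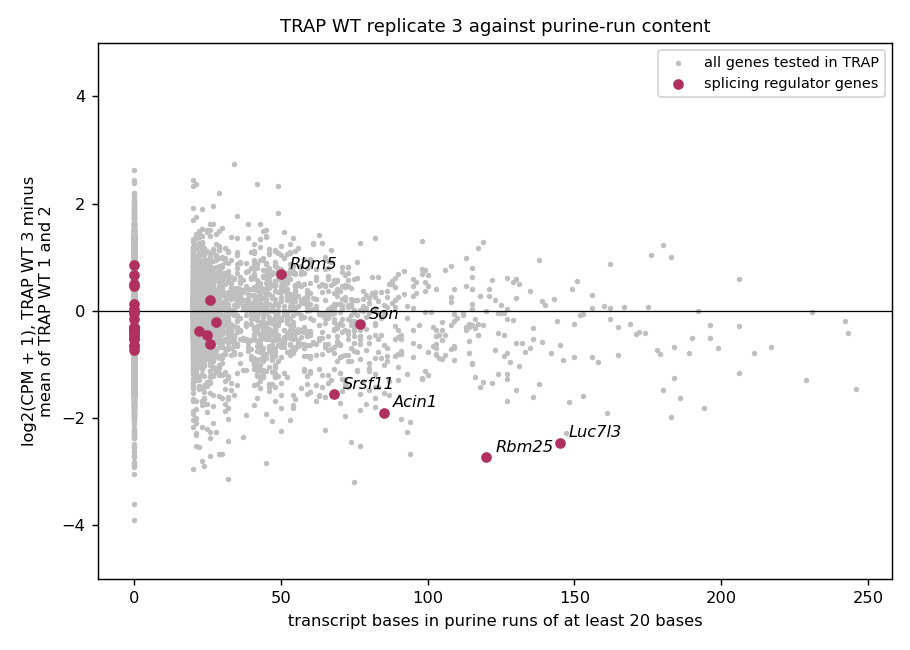
Each point is a gene: bases of its longest coding transcript in purine runs of at least 20 bases (x) against its log2(CPM + 1) in TRAP WT replicate 3 minus the mean of replicates 1 and 2 (y). Rbm25, Luc7l3, Acin1 and Srsf11 lie between -2.73 and -1.56, Son and Rbm5 at -0.25 and 0.68; 10 genes lie beyond the right edge.

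Levels were compared between genes per kilobase (CPM divided by the length of the longest annotated transcript), and several ranks depended on that length. In input WT, on this scale, the 2 DEAD-box helicases led, Ddx5 at 223 ± 9.48 CPM per kb (SD, n = 4) and Ddx17 at 82.9 ± 3.26. Rsrp1 (60.2 ± 5.51), Rbm39 (60.0 ± 1.92), Snrnp70 (56.2 ± 6.92) and Srsf2 (52.0 ± 1.82) followed and lay within about 1 SD of their neighbours in that order. Srsf11 (47.4 ± 5.10) and Srsf5 (46.0 ± 4.69) came next. All 4 CLK kinases were among the 5 lowest on this scale, with Srsf12 at 5.65 ± 0.414, Clk2 at 5.82 ± 0.486, Clk1 at 9.23 ± 0.631, Clk4 at 10.1 ± 0.802 and Clk3 at 13.8 ± 0.805 CPM per kb. Srsf12 and Clk2 did not differ beyond their spread, and neither did Clk1 and Clk4, nor Clk3 and Tra2a (13.9 ± 0.724), the next gene up. With CPM divided by the summed length of all annotated exons, the Spearman correlation with the first scale was 0.91 over the 33 genes, but named ranks changed. Rsrp1 (54.9 CPM per kb) then lay above Ddx17 (51.3), Srsf11 moved from rank 7 to rank 14, and the 5 lowest were Clk2, Srsf12, Clk1, Rbm25 and Rbm5, with Clk4 at rank 28 and Clk3 at rank 27. The median coefficient of variation over the genes was 6.71% in input WT and 5.42% in input KO, but 20.9% in TRAP WT and 10.4% in TRAP KO.

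The genes split by role when Purkinje TRAP was set against input in WT. SR protein genes were mostly higher in TRAP and the other genes mostly lower: 7 of 11 SR protein genes rose and 1 fell, while of the other 22 genes 1 rose and 14 fell. In all, 8 of 33 (24.2%) were higher and 15 (45.5%) lower by edgeR's quasi-likelihood test with Benjamini-Hochberg adjustment at 0.05, where 37.0% and 38.5% of all 16042 genes tested were called higher and lower. The share called lower is near that of all genes and the share called higher is below it. Every TRAP WT library lay above every input WT library in 7 of the 33 genes (34.4% of all genes) and below in 15 (38.2%). The median log2 fold change was -0.27 over the 33 genes and -0.088 over all genes. These directions are relative to the other RNA in a library: scaling by library totals alone moved the median of all genes by -0.82, and then none of the 33 was called higher and 27 were called lower, where 19.5% and 61.1% of all genes were. Under both scalings the 8 genes called higher lay above the median of all genes and the 15 called lower lay below it. A change of scaling moves all genes by nearly the same amount, so this could hardly have come out otherwise.

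**Figure D2:**
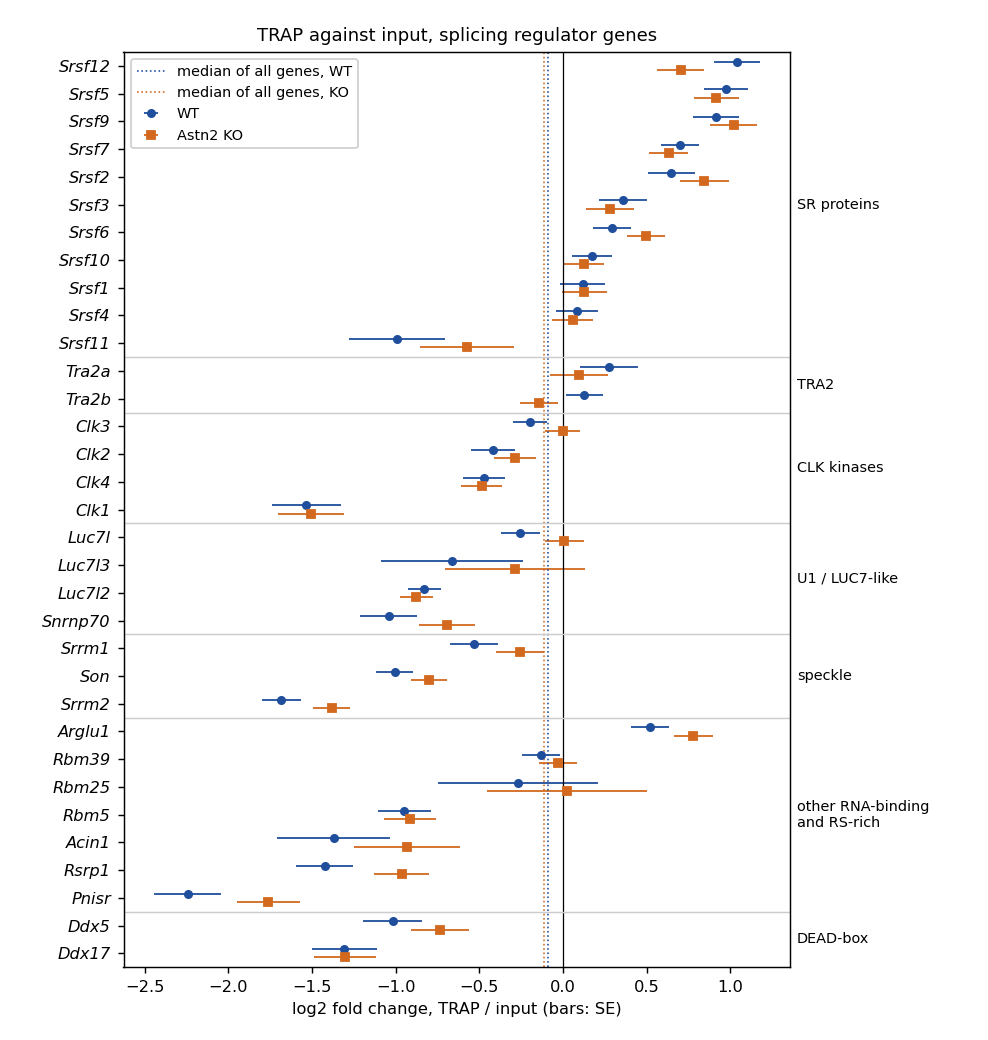
Log2 fold change of TRAP over input for each gene (points) with its standard error (bars), in WT (circles) and Astn2 KO (squares), grouped by role. Dotted lines mark the medians of all genes, -0.088 in WT and -0.11 in KO; Srsf12, Srsf5 and Srsf9 lie farthest to the right and Pnisr, Srrm2 and Clk1 farthest to the left in WT.

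Srsf12, a small SR-related protein that can oppose other SR proteins, had the highest ratio. It stood at 18.0, 17.0, 16.3 and 15.1 CPM in input WT and 17.7, 18.1 and 17.9 in input KO. In TRAP it stood at 29.3, 30.6 and 42.5 CPM in WT and 29.2, 28.6, 25.5 and 33.8 in KO. Every TRAP library lay above every input library, and the log2 fold change was 1.04 in WT (SE 0.14, adjusted p = 1.02e-05) and 0.70 in KO (adjusted p = 0.000435). Srsf5 codes for an abundant enhancer-binding SR protein. Its level was 175, 169.8, 157 and 138 CPM in input WT and 143, 150.1 and 157 in input KO, and in TRAP 269.6, 342 and 333 in WT and 342, 256, 263 and 271 in KO. The groups did not overlap between fractions, and Srsf5 was higher in TRAP by 0.98 log2 units in WT (SE 0.13, adjusted p = 1.29e-05) and 0.92 in KO (adjusted p = 3.26e-05).

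Srsf9, Srsf7 and Srsf2 followed. Srsf9, the shortest transcript of the set, stood at 49.4, 44.8, 43.9 and 37.5 CPM in input WT, 35.8, 42.0 and 41.0 in input KO, 81.8, 102 and 66.1 in TRAP WT and 88.6, 77.3, 76.9 and 76.4 in TRAP KO. Its log2 fold change was 0.92 in WT (adjusted p = 3.63e-05) and 1.02 in KO (adjusted p = 1.89e-05). Srsf7, an SR protein that also serves in mRNA export, stood at 51.3, 55.6, 60.9 and 57.7 CPM in input WT, 54.4, 61.8 and 60.0 in input KO, 77.5, 107 and 88.4 in TRAP WT and 101, 85.9, 85.0 and 96.5 in TRAP KO. It differed by 0.70 in WT (adjusted p = 7.43e-05) and 0.63 in KO (adjusted p = 0.000218). Srsf2, the speckle marker SC35, stood at 99.0, 104, 97.2 and 95.5 CPM in input WT, 87.0, 88.2 and 94.8 in input KO, 149, 197 and 119 in TRAP WT and 183, 148, 153 and 164 in TRAP KO. For all 3 genes the lowest TRAP library lay above the highest input library, and Srsf2 changed by 0.65 in WT (adjusted p = 0.000957; 0.37 without TRAP WT replicate 2) and 0.84 in KO (adjusted p = 0.000143). Exons of Srsf2 overlap those of Mettl23 and Mfsd11 on the other strand, and strand use in counting is not given in the sources used here, so its counts are uncertain.

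Srsf3 and Srsf6 passed the threshold in WT by less. Srsf3, which couples splicing to export and polyadenylation, changed by 0.36 (SE 0.14, adjusted p = 0.0355), and Srsf6 by 0.29 (SE 0.11, adjusted p = 0.0292). Without TRAP WT replicate 2 the WT values fell to 0.083 for Srsf3 (adjusted p = 0.563) and 0.13 for Srsf6 (adjusted p = 0.302). Both also missed the threshold in edgeR's test with the replicate number as a block, Srsf3 at 0.33 (adjusted p = 0.105) and Srsf6 at 0.25 (adjusted p = 0.111). In KO, Srsf6 rose by 0.50 (adjusted p = 0.00139) and Srsf3, at 0.28, missed the threshold (adjusted p = 0.0935). Srsf1, Srsf4 and Srsf10 were not called in either genotype, with values between 0.058 and 0.17. Srsf11 was the 1 SR protein gene that fell in WT, by 0.99 on the log2 scale (SE 0.29, adjusted p = 0.00656). Without TRAP WT replicate 3 its change was -0.64 (adjusted p = 0.00204) and without replicate 2 it was -1.62, and in KO it was -0.57 (adjusted p = 0.077).

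The TRA2 proteins are SR-like activators that bind purine-rich exonic enhancers. Neither Tra2a (0.28, SE 0.17) nor Tra2b (0.13, SE 0.11) was called in WT. Without TRAP WT replicate 3, Tra2a was at 0.41 (adjusted p = 0.0453), which brought the genes called higher in WT to 9, where 36.0% of all genes were.

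CLK kinases are dual-specificity kinases of the nucleus that phosphorylate SR proteins. The 4 members all had a negative TRAP over input value in both genotypes, and 3 were called lower in WT. Clk1, whose own pre-mRNA is known to be held in the nucleus with introns retained, stood at 48.7, 45.8, 43.2 and 41.7 CPM in input WT and 41.2, 61.3 and 37.8 in input KO. In TRAP it stood at 12.5, 13.0 and 20.7 CPM in WT and 14.3, 16.6, 19.2 and 15.9 in KO, below every input library. The log2 fold change was -1.53 in WT (SE 0.21, adjusted p = 1.23e-05) and -1.51 in KO (adjusted p = 1.07e-05). Clk4, the closest paralog of Clk1, stood at 37.9, 37.9, 35.5 and 31.9 CPM in input WT, 31.1, 37.7 and 28.8 in input KO, 24.3, 28.0 and 25.2 in TRAP WT and 23.3, 20.5, 22.9 and 26.2 in TRAP KO. It fell by 0.47 on the log2 scale in WT (adjusted p = 0.0035) and by 0.49 in KO (adjusted p = 0.0028). Reads that fit both Clk1 and Clk4 could be split between them by the counting.

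Clk2 stood at 18.6, 19.2, 19.7 and 16.2 CPM in input WT, 16.8, 18.6 and 17.9 in input KO, 14.3, 15.5 and 11.7 in TRAP WT and 15.3, 12.4, 15.2 and 15.6 in TRAP KO. TRAP lay below input in both genotypes, but the difference was called in WT (-0.42, adjusted p = 0.00957) and missed the threshold in KO (-0.29, adjusted p = 0.0535). Clk3 stood at 58.7, 60.4, 55.3 and 53.0 CPM in input WT, 55.9, 51.2 and 56.3 in input KO, 54.8, 52.7 and 42.1 in TRAP WT and 52.8, 56.9, 51.4 and 55.4 in TRAP KO. The fractions overlapped for Clk3, with values of -0.20 in WT (adjusted p = 0.0997) and -0.0013 in KO (adjusted p = 0.992), and its exons overlap those of Edc3 on the other strand. Of 10 other kinases of SR proteins and the spliceosome (the SRPK and DYRK families, Prpf4b, Hipk2, Cdk12 and Cdk13), 1 rose and 3 fell in WT: Cdk12 was at 0.41, Dyrk2 at -3.24, Hipk2 at -1.49 and Prpf4b at -0.69.

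Snrnp70 codes for the 70K protein of the U1 particle, which recognises the 5′ splice site, and the LUC7-like proteins associate with U1. Snrnp70 stood at 258, 235, 214 and 193 CPM in input WT and 169, 209 and 152 in input KO, and at 112, 139 and 79.5 in TRAP WT and 128, 104, 101 and 92.9 in TRAP KO. No TRAP library reached the lowest input library, and the change was -1.04 in WT (SE 0.17, adjusted p = 7.72e-05) and -0.69 in KO (adjusted p = 0.00177). Luc7l2, whose exons overlap those of the lincRNA Gm26699 on the other strand by 2284 bases, fell by 0.83 on the log2 scale in WT (adjusted p = 4.20e-06) and 0.88 in KO (adjusted p = 2.16e-06). Luc7l and Luc7l3 were not called in either genotype. For Luc7l3 the standard error was 0.42 around -0.66 in WT, and without TRAP WT replicate 3 the value was -0.21 (SE 0.21, adjusted p = 0.380).

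Son and Srrm2 build nuclear speckles, and Srrm1 is a coactivator found there. All 3 were lower in TRAP in WT, Srrm2 by 1.68 on the log2 scale (SE 0.12, adjusted p = 1.76e-08), Son by 1.01 (adjusted p = 1.86e-06) and Srrm1 by 0.53 (adjusted p = 0.00435; -0.82 without TRAP WT replicate 2). Srrm2 stood at 232, 229.6, 222 and 226 CPM in input WT and 229, 212 and 218 in input KO, and at 80.5, 77.2 and 57.2 in TRAP WT and 92.6, 86.3, 75.7 and 78.1 in TRAP KO. The input libraries of Srrm2 lay within a narrow band, with every TRAP library far below it. In KO, Srrm2 (-1.38) and Son (-0.80) were called lower and Srrm1 (-0.26) missed the threshold (adjusted p = 0.114). Exons of Son overlap those of Donson on the other strand.

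Pnisr, named for its serine- and arginine-rich sequence and its partner pinin, had the lowest ratio of the 33 genes. It stood at 153, 139, 118 and 116 CPM in input WT and 103, 123 and 86.6 in input KO. In TRAP it stood at 27.6, 37.3 and 19.0 CPM in WT and 36.0, 27.4, 26.3 and 29.6 in KO, under all input libraries, and the change was -2.24 in WT (SE 0.20, adjusted p = 2.35e-07) and -1.76 in KO (adjusted p = 1.45e-06). Rsrp1, another arginine- and serine-rich protein, stood at 207, 185, 172 and 172 CPM in input WT and 153, 199 and 111 in input KO. Its TRAP levels were 59.2, 77.3 and 69.0 CPM in WT and 81.8, 76.0, 84.9 and 65.2 in KO, also without overlap, for a change of -1.42 in WT (adjusted p = 4.05e-06) and -0.96 in KO (adjusted p = 0.000123). Acin1 stood at 126, 129.6, 117 and 113 CPM in input WT, 120.2, 115 and 117 in input KO and 73.8, 57.1, 60.1 and 51.2 in TRAP KO, beside the TRAP WT values given above. It changed by -1.37 in WT (SE 0.34, adjusted p = 0.00206), by -0.96 without TRAP WT replicate 3 (adjusted p = 5.98e-05) and by -2.02 at the other end of the range over left-out libraries, and by -0.93 in KO (adjusted p = 0.0167). Exons of Acin1 overlap those of 1700123O20Rik on the other strand by 463 bases.

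Arglu1, an arginine- and glutamate-rich coactivator, was the only gene outside the SR proteins called higher, in both genotypes. It stood at 76.3, 71.6, 71.2 and 65.7 CPM in input WT, 58.3, 72.6 and 60.7 in input KO, 103, 117 and 88.1 in TRAP WT and 121, 108, 104 and 100.3 in TRAP KO. No input library reached the lowest TRAP library, and the change was 0.52 in WT (adjusted p = 0.000861; 0.33 without TRAP WT replicate 2) and 0.78 in KO (adjusted p = 3.56e-05). Rbm5, which acts on exon choice in apoptosis genes, fell by 0.95 on the log2 scale in WT and by 0.91 in KO. Rbm39, a relative of U2AF, and Rbm25 were not called, and Rbm25 was at -0.27 (SE 0.48) with TRAP WT replicate 3 and at 0.21 (SE 0.27) without it. Ddx17, an RNA helicase paralogous to Ddx5, stood at 409, 402, 379.6 and 379 CPM in input WT and 359, 387 and 336 in input KO, and at 122, 128 and 227 in TRAP WT and 158, 141, 167 and 122 in TRAP KO. In this gene TRAP WT replicate 3 was the highest TRAP library, yet all TRAP libraries were below all input libraries. Ddx17 changed by -1.31 in WT (adjusted p = 3.20e-05) and -1.30 in KO (adjusted p = 2.55e-05), and Ddx5 by -1.02 and -0.73.

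TRAP was set against input in KO in the same fit, with other libraries. In KO 7 genes were higher and 12 lower (background 36.3% and 39.6% of all genes), and all of these had been called in the same direction in WT. Every TRAP KO library lay above every input KO library in 8 of the 33 genes (37.8% of all genes) and below in 15 (40.2%). The 4 genes called in WT and not in KO were Srsf3, Srsf11, Clk2 and Srrm1. None of the 33 genes passed the test of the genotype by fraction interaction, whether adjusted or at an unadjusted p under 0.05 (background 2.68% unadjusted, 0.0% adjusted), and Pnisr, with the largest value, was at 0.48 (SE 0.27, adjusted p = 0.999 in edgeR). Left-out libraries moved this count: without TRAP WT replicate 2, 16 of the 33 had an unadjusted p under 0.05, where 11.9% of all genes did, and still none an adjusted one.

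**Figure D3:**
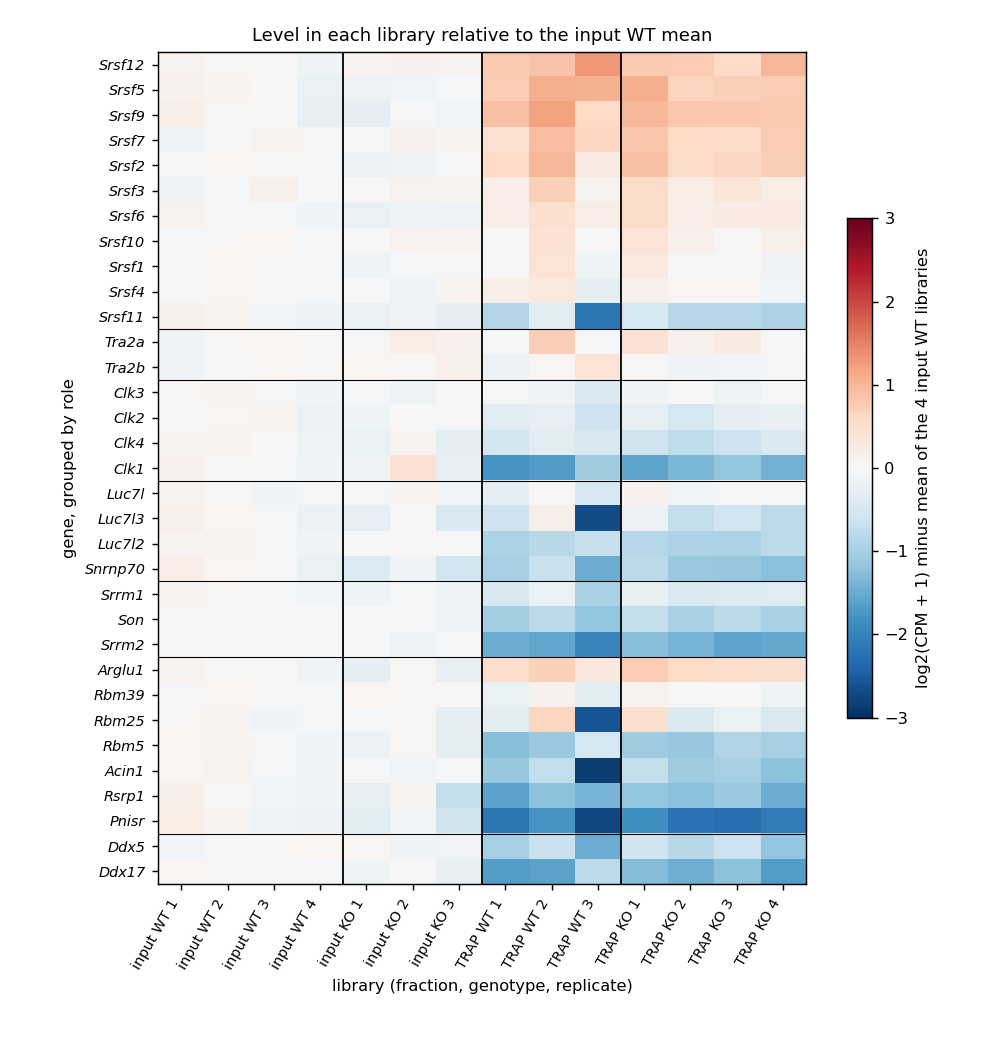
Log2(CPM + 1) of each gene (rows, grouped by role) in each of the 14 libraries (columns), minus the mean of the 4 input WT libraries. Most SR protein rows are red in the 7 TRAP columns and the rows of Clk1, Srrm2 and Pnisr blue, and the column of TRAP WT replicate 3 is darkest for Rbm25, Luc7l3, Acin1, Srsf11 and Pnisr.

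Gene structure differed along with the ratio. The 8 genes higher in TRAP had a median longest transcript of 3210.5 bases, the 15 lower genes one of 4542, and all protein-coding genes one of 3436. Over the 33 genes the Spearman correlation of the WT log2 fold change was -0.56 with the longest transcript's length, -0.63 with the largest number of exons and -0.31 with the number of retained-intron transcripts. Over all 14862 protein-coding genes the same correlations were -0.29, -0.16 and 0.019. These points share libraries and annotation depth and are given as a description. The part of transcript length in the split between SR proteins and the other genes was not tested.

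Other lists of the splicing machinery gave their own counts in WT. Of 40 core spliceosome genes 13 were higher and 14 lower (median -0.089), with the small Sm proteins Snrpn (1.88), Snrpf (1.77) and Snrpe (1.73) at the top and the large factors Prpf39 (-1.81) and Sf3b1 (-1.50) at the bottom. Of 24 hnRNP genes, whose products often oppose SR proteins at exons, 6 were higher and 8 lower (median 0.092), from Hnrnpab (0.95), Pcbp1 (0.82) and Hnrnpa0 (0.72) to Hnrnpu (-1.24), Hnrnpll (-0.87) and Syncrip (-0.81). Of 30 regulators known for neuronal or other tissue-restricted splicing, 6 were higher and 19 lower (median -0.88). Khdrbs2 (1.78), Celf6 (1.04) and Rbfox2 (0.95) led the higher ones, and Srrm4 (-3.18), Qk (-2.95), a glial regulator, and Celf5 (-2.54) the lower ones. All 10 noncoding RNAs known to stay in the nucleus were lower in TRAP (median -2.37). Malat1, a speckle RNA, stood at 587, 552, 445 and 409 CPM in input WT against 18.6, 29.4 and 16.5 in TRAP WT (-4.54), and Meg3 at 1862, 1738, 1516 and 1422 against 69.0, 96.1 and 33.8 (-4.64). Input libraries thus held these 10 RNAs at higher levels than TRAP libraries. The counts do not show where in the cell an RNA lay, and the part of nuclear RNA in the ratios of the 33 genes was not tested.

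In Purkinje TRAP no gene of the set was called different between KO and WT. None passed the adjusted threshold in edgeR's test, which 0.00707% of all genes did, and none had an unadjusted p under 0.05, where 1.50% of all genes did. In no gene did the 4 KO libraries lie all above or all below the 3 WT libraries, where 1.80% and 2.69% of all genes did. DESeq2's Wald test also called none, and had none at an unadjusted p under 0.05, where 1.52% of all genes passed. The smallest unadjusted p was that of Luc7l, at 75.1, 89.5 and 63.2 CPM in TRAP WT and 98.0, 85.3, 85.9 and 85.8 in TRAP KO, with 2 of 3 WT libraries below and 1 inside the KO range. The change was 0.22 (SE 0.17). Srrm2 (0.19, SE 0.16), Rsrp1 (0.19, SE 0.17) and Srsf12 (-0.18, SE 0.19) came next, all with overlapping libraries. With 1 library left out at a time these values ran from 0.12 to 0.37 for Luc7l, 0.080 to 0.29 for Srrm2, 0.058 to 0.32 for Rsrp1 and -0.28 to -0.022 for Srsf12. Standard errors ran from 0.14 (Luc7l2) to 0.63 (Rbm25), against 0.054 (Tra2b) to 0.14 (Clk1) in input. Without TRAP WT replicate 2, 5 genes had an unadjusted p under 0.05, where 7.08% of all genes did, and none an adjusted one. Without TRAP WT replicate 3, Rbm25 moved from 0.12 to -0.31 (SE 0.35), Luc7l3 from 0.073 to -0.35 (SE 0.25) and Acin1 from 0.31 to -0.065 (SE 0.19).

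In whole-cerebellum input 12 of the 33 genes (36.4%) had an unadjusted p under 0.05, all lower in KO, where 7.50% of all genes were lower and 13.7% passed in either direction. None passed the adjusted threshold in edgeR's test, in which 0.0188% of all genes did. Negative values were found for 25 of the 33 genes (75.8%), against 52.2% of all genes, and the median was -0.089 against -0.0085. The 12 were Pnisr, Snrnp70, Rsrp1, Luc7l3, Srsf11, Clk4, Rbm5, Arglu1, Srsf6, Ddx17, Srrm1 and Srsf2, from -0.50 to -0.13 on the log2 scale. Their p-values are not independent, since the same 7 libraries gave them all. By role, 3 of 11 SR protein genes, 1 of 4 CLK kinases, 2 of 4 U1 and LUC7-like genes, 1 of 3 speckle genes, 4 of the 7 other RNA-binding and RS-rich genes and 1 of 2 helicases were among them, and neither TRA2 gene was.

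**Figure D4:**
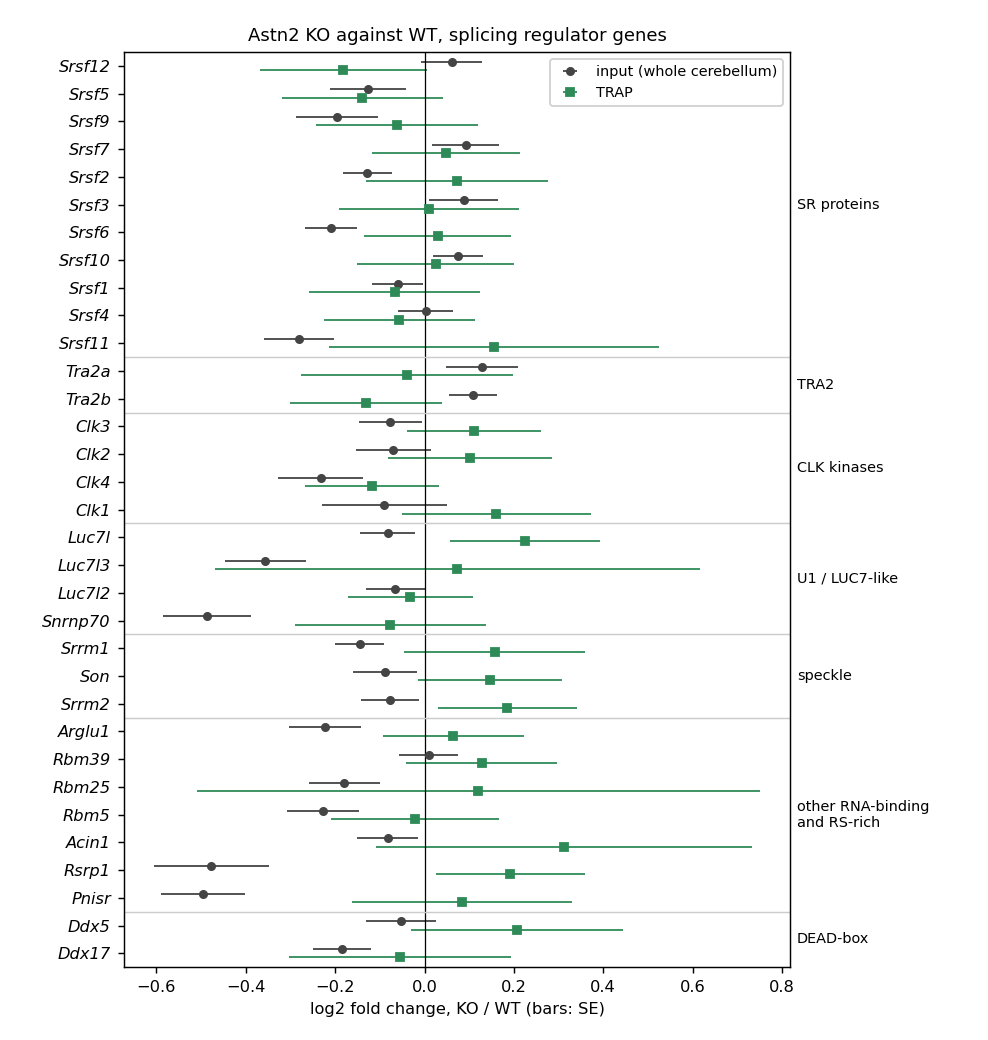
Log2 fold change of KO over WT for each gene (points) with its standard error (bars), in input (circles) and in TRAP (squares), grouped by role. In input Pnisr, Snrnp70, Rsrp1 and Luc7l3 lie farthest to the left, between -0.50 and -0.36, and the TRAP bars are wider for every gene.

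Pnisr had the smallest p of the set in input. Its input levels, given above, were 116 to 153 CPM in WT and 86.6 to 123 in KO, so 1 KO library lay among the WT libraries, and the change was -0.50 (SE 0.093, adjusted p = 0.154). Snrnp70 ran from 193 to 258 CPM in WT and from 152 to 209 in KO, again with 1 KO library inside the WT range (-0.49, SE 0.10, adjusted p = 0.157). Rsrp1 ran from 172 to 207 CPM in WT and from 111 to 199 in KO (-0.48, SE 0.13, adjusted p = 0.218). In each of these 3 genes KO replicate 2 was the highest KO library and KO replicate 3, the male one, the lowest. Luc7l3 stood at 179, 168, 158 and 142 CPM in input WT and 137, 161 and 118 in input KO (-0.36, SE 0.091, adjusted p = 0.197), with the same order among the KO libraries. Only in Srsf6 (-0.21, SE 0.059) and Srsf2 (-0.13, SE 0.055) did every KO library lie below every WT library, 6.06% of the set against 4.24% of all genes.

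The input difference depended on the libraries and the model. Without input KO replicate 2, Snrnp70 (adjusted p = 0.0303), Rsrp1 (0.0277) and Pnisr (0.0324) were called lower in KO, where 0.647% of all genes were. Without input KO replicate 3, none was called and 5 rather than 12 genes had an unadjusted p under 0.05, while the share of all genes fell from 13.7% to 5.86%, and Rsrp1 moved from -0.48 to -0.22. DESeq2's Wald test called 4 genes lower (Pnisr, Snrnp70, Rsrp1 and Luc7l3, adjusted p from 0.000133 to 0.0117), where it called 1.19% of all genes lower and 0.631% higher. Within males, the 1 input KO library can be set beside 3 WT libraries, and within females 2 KO beside 1 WT, which is too few for a test within a sex. With no sex term in the model 5 genes had an unadjusted p under 0.05, near the 11.0% of all genes that did, and with all 14 libraries in 1 fit 2 genes did, against 2.55% of all genes.

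Nuclear noncoding RNAs moved with these genes across the input libraries. Their mean log2(CPM + 1) over 10 RNAs was 6.39, 6.28, 6.18 and 6.06 in input WT replicates 1 to 4 and 6.10, 6.38 and 5.93 in input KO replicates 1 to 3. KO replicate 3, lowest in Pnisr, Snrnp70, Rsrp1 and Luc7l3, was also lowest in that score, and among WT libraries replicate 1 was highest in all 4 genes and in the score. In input 7 of those 10 RNAs were lower in KO, 4 with an unadjusted p under 0.05. Meg3, for example, stood at 1862, 1738, 1516 and 1422 CPM in WT and 1266, 1689.9 and 1103 in KO. Endothelium markers were also lower, 8 of 8 negative in input KO with a score of 2.33 to 2.67 in WT and 1.88 to 2.26 in KO. Purkinje markers went the other way, with 11 of 12 positive and 4 at an unadjusted p under 0.05 (median 0.16), and a score of 8.95 to 9.08 in WT and 9.04 to 9.23 in KO. The choroid plexus score varied widely within both genotypes. It was 2.33, 4.71, 4.38 and 2.22 in input WT replicates 1 to 4 and 2.20, 5.89 and 2.10 in input KO replicates 1 to 3. The part of any of these in the input difference was not tested. The mean of the 33 genes themselves was 6.74, 6.74, 6.68 and 6.61 in input WT and 6.58, 6.69 and 6.56 in input KO, so KO replicate 2 lay within the WT range.

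**Figure D5:**
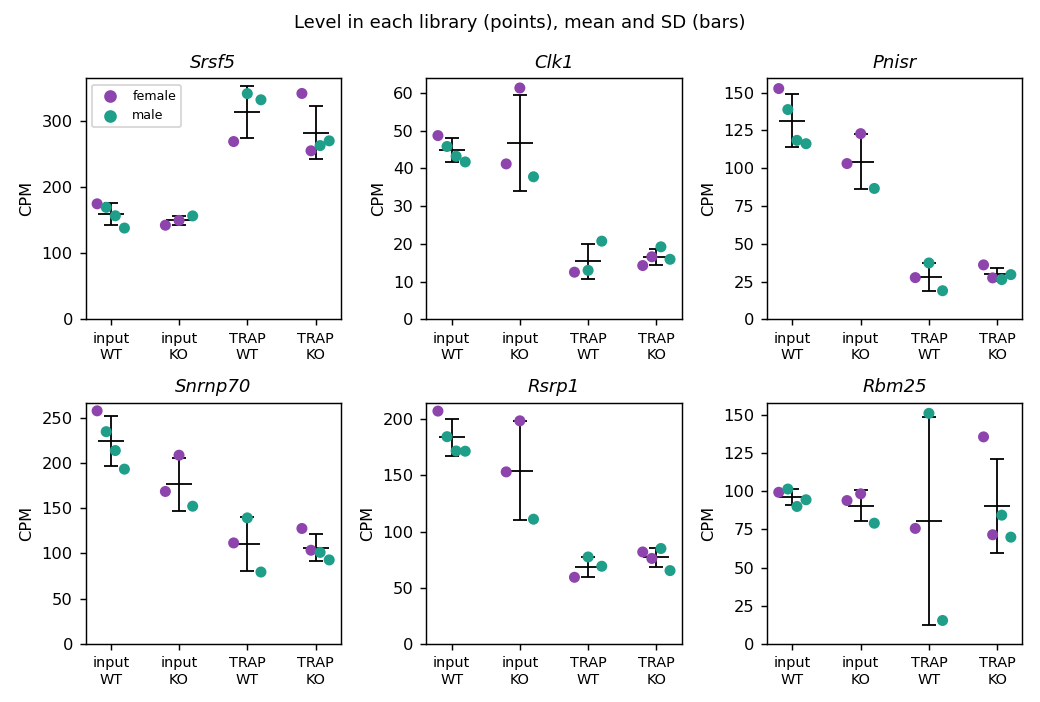
CPM of 6 genes in each library (points, coloured by sex) with the mean and SD of each group (bars), on axes that start at 0. Srsf5 is higher and Clk1, Pnisr, Snrnp70 and Rsrp1 lower in TRAP than in input, input KO spans 111 to 199 CPM for Rsrp1, and Rbm25 in TRAP WT runs from 15.3 to 151.2.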

How the data were processed

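Per the submitters' processing notes, Salmon 0.8.2 and mm10 were used, with no role named. The deposited values are whole-number counts per Entrez gene, 1 column per library, with no normalization. Whether the authors counted reads or rounded estimated abundances, the annotation and the strand setting are not given in the sources used here. Symbols came from RefSeq (GRCm38.p6; 24045 of 24100 genes matched), transcripts and positions from GENCODE M21 (GRCm38).

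The 33 genes and all lists were chosen with earlier results of these data known. The rule for named genes gave values in every library for the 6 highest and 6 lowest TRAP over input values in WT among called genes, for the 4 CLK kinases, and for the 4 genes with the smallest p in each genotype comparison.

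edgeR 4.0.16 (R 4.3.3) was run on the counts with glmQLFit and glmQLFTest, TMM factors, filterByExpr by group, sex as covariate, and Benjamini-Hochberg adjustment over all genes tested (14145 in TRAP, 15997 in input, 16042 in all 14 libraries), two-sided at 0.05. Standard errors are the absolute log2 fold change over the square root of F. Alternatives were DESeq2 1.42.0 (size factors, Wald test), library totals, no filter, a mean count of at least 50, no sex term, limma 3.58.1 quality weights, a replicate block, 1 fit of all libraries and each library left out. The scripts were tested on simulated data. Library pairs within a group differed beyond sampling noise (chi-square per degree of freedom 8.63 to 267).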

Additional observations from a re-analysis of the deposited data

Results flagged for a closer look

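In the groups of 4 libraries, 68 values were examined for 1 library far from the other 3. Far meant a gap to its nearest neighbour past Dixon's 95% critical value as a share of the group's range. Chance flags about 1 in 20 groups, and the 4 found are close to that rate. All 4 lie in TRAP KO. Srsf9 stood at 88.6 CPM in replicate 1 and 76.4 to 77.3 in the others (gap 0.917 of the range). Srsf11 stood at 101 CPM in replicate 1 and 77.0 to 80.5 in the others (gap 0.838). Luc7l stood at 98.0 CPM in replicate 1 and 85.3 to 85.9 in the others (gap 0.955). Clk2 stood at 12.4 CPM in replicate 2 and 15.2 to 15.6 in the others (gap 0.877).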

How the results depend on the processing

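With library totals in place of TMM, TRAP against input shifted for the median of all genes by -0.82 (WT) and -0.73 (KO). Higher calls then made up 24.2% rather than 49.0% of all called genes for WT and 24.5% rather than 47.8% for KO. Among the 33 genes that scaling called 0 higher in either genotype, 27 lower for WT (61.1% of all genes) and 26 lower for KO (60.3%). The WT values that turned negative were Srsf2 (-0.17), Srsf3 (-0.46), Srsf6 (-0.53), Srsf7 (-0.13) and Arglu1 (-0.30), and in KO Srsf6 (-0.24), Srsf7 (-0.11) and Srsf12 (-0.033). That scaling shifts all genes by construction, so a gene's side of the median of all genes could hardly change under it. Each gene called in WT or KO kept that side under every alternative run.

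Leaving out each library in turn gave 21 to 26 called genes for WT (6 to 9 up, 15 to 20 down) and 18 to 23 for KO (7 to 8 up, 11 to 15 down), 0 to 3 in the input genotype comparison, 0 to 0 in TRAP and 0 to 0 for the interaction. Of all genes, 35.2% to 37.0% were then up and 35.9% to 40.0% down for WT. For KO the shares were 33.2% to 37.8% up and 36.2% to 42.5% down. The 3 input calls came without KO replicate 2, where 0.647% of all genes were called lower and 0.336% higher. DESeq2's Wald test called 4 genes in input, where it called 1.19% of all genes lower and 0.631% higher; the cause was not tested. Srsf3 and Srsf6 in WT missed the threshold with a mean count of at least 50 (0.15 and 0.084), Srsf6 also without a filter (0.29), which moved the median of all genes by -0.11 in WT, and Acin1 in KO without input KO replicate 3 (adjusted p = 0.0707). Without TRAP WT replicate 3, 9 were higher and 15 lower in WT (36.0% and 40.0% of all genes). With a mean count of at least 50, Arglu1 (0.31) and Clk2 (-0.63) in WT and Srsf6 (0.31) in KO were still called but moved by over 1.5 times.

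Same-numbered libraries correlated by 0.098 to 0.29 between the WT fractions and -0.13 to 0.23 between the KO fractions. Differently numbered ones ran from -0.23 to 0.18 in WT and -0.23 to 0.35 in KO. For input WT replicates 1 to 3 and input KO replicates 1 and 2, the same-numbered TRAP library gave the highest value. Input KO replicate 3 correlated most with TRAP KO replicate 4 (0.35). Same-numbered libraries of the 2 genotypes correlated by -0.031 to 0.14 in input and -0.20 to -0.046 in TRAP. Whether same-numbered libraries share an animal was not tested. With the replicate number as a block, on 12 libraries, WT had 22 called genes (6 up, 16 down), where 34.9% and 37.6% of all genes were. KO had 19 (7 up, 12 down), where 34.7% and 36.8% of all genes were. Srsf3 (0.33) and Srsf6 (0.25) in WT missed the threshold there, and there were 0 calls for the interaction. In each genotype comparison the block took the place of sex and joined same-numbered WT and KO libraries, which come from different animals. It gave 0 calls, but with few libraries per block that says little.

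With the summed exon length, 31 of the 33 levels per length moved by over 1 SD. The lowest count of these genes in any library was 183 (Clk1), so no value rests on a few counts. Precision is limited by the number of libraries and, in TRAP WT, by their spread.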
